A study of Mus musculus with 13 samples.

Results

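Sorted retinal cells of wild type (WT) mice at postnatal day 21 (P21) were compared with the same preparation at postnatal day 14 (P14), across all genes. The comparison takes 5 of the 13 RNA-seq libraries of the study, chosen by age alone: 3 at P14 and 2 at P21. In each, retinas were dissociated with papain, stained for the surface protein Thy1.2 and sorted for the positive cells, and the labels name the product retinal ganglion cells (RGCs), the neurons whose axons form the optic nerve. These animals carried no deletion and had no virus or injury. A further 3 libraries, prepared likewise at postnatal day 1 (P1), entered the fit to estimate the spread. They also took part in the filter that set which genes were tested. The other 5 libraries, from adult mice with a floxed Kdm6a that received AAV2-Cre or AAV2-GFP before optic nerve crush, served in 1 alternative fit. The sources used here give neither the sex of the mice nor whether a library held 1 animal or a pool, so the p-values measure the spread between these libraries, which may be technical.

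In the mouse, this interval runs from eye opening to weaning. The vascular beds of the retina are by then laid out, and their pericytes and basement membranes mature as sprouting ends. Müller glia, the radial glia that span the retina, take over glutamate uptake and potassium buffering. During development neurons lower their internal chloride so that GABA and glycine inhibit, a step whose timing was not measured here. Circulating corticosterone, low in the first postnatal weeks, rises towards weaning.

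The P14 libraries held 30357454 to 38812917 counts and the P21 libraries 33036113 and 36617067. Levels are given as CPM (counts per 1e6 counts of a library), scaled by TMM, with mean ± SD over the 3 P14 or the 2 P21 libraries, and fold changes are P21 over P14. Markers of RGCs were scarce: their summed share of counts was 0.18% to 0.20% at P14 and 0.0863% and 0.132% at P21, against 1.11% to 1.21% at P1. Müller glia markers held 3.15% to 3.30% at P14 and 5.43% and 5.70% at P21, and per kilobase of exon Glul, the glutamine synthetase of Müller glia, had the highest level at P21 of any gene with at least 500 bases of exon (4920.2 CPM per kb) and lay at 2370.3 CPM per kb at P14. Thy1 itself was present in every library, at 187, 183 and 185 CPM at P14 and 92.2 and 70.0 CPM at P21 (fold change 2.28, lower; log2 −1.19 ± 0.11 SE; adjusted p = 4.58e-05). The libraries are therefore called Thy1.2-sorted retinal cells here, and not RGCs. In such bulk samples, fewer cells of a type and less RNA per cell cannot be told apart.

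Other facts of the libraries bear on what follows. The 4 Y-linked genes Kdm5d, Uty, Ddx3y and Eif2s3y lay at 0 to 0.466 CPM in the P14 libraries and at 13.1 to 68.5 CPM in the P21 libraries, so the sex makeup differed between the ages and the effects of sex and age cannot be told apart. Genes on X and Y stayed in the fit and were left out of every count and name that follows, whereas 44 tested genes with no annotated chromosome, none of them in a list, were counted with those off X and Y. Among P1 libraries, replicate 3 stood apart, with 286 and 313 of 11356 genes more than 2-fold from the other two, which differed from each other in 13. Because the P1 libraries set part of the spread, a fit of the 5 P14 and P21 libraries alone is given beside genes described here whose call it changes and beside some list counts. The P21 libraries differed from each other more than 2-fold in 147 genes and the P14 libraries in 0 to 7, and among the genes that differ within the P21 pair is Stmn2, which encodes a tubulin-binding protein of growing axons, at 73.2 CPM in replicate 1 and 7.65 CPM in replicate 2.

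Of 20194 genes tested off X and Y, 2976 were higher at P21 (14.7%) and 3868 lower (19.2%) at an adjusted p under 0.05 (edgeR's quasi-likelihood test with Benjamini-Hochberg adjustment over all genes tested). These are the background shares against which each list below is read, and the median log2 fold change over all genes was −0.0017. Differentially expressed genes (DEGs), with a change of more than 2-fold besides, numbered 544 higher (2.69%) and 1865 lower (9.24%). The 5 libraries alone gave 3511 higher (18.3%) and 3907 lower (20.4%) genes of 19152, with 589 higher (3.08%) and 1841 lower (9.61%) DEGs, and 6520 genes were called in both fits without the fold limit, each in the same direction. With the fold limit, most DEGs that were lower encoded protein, 1635 of 1865, against 324 of 544 that were higher. The protein-coding share of all genes tested is not given here, so these counts are only a description.

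**Figure D1:**
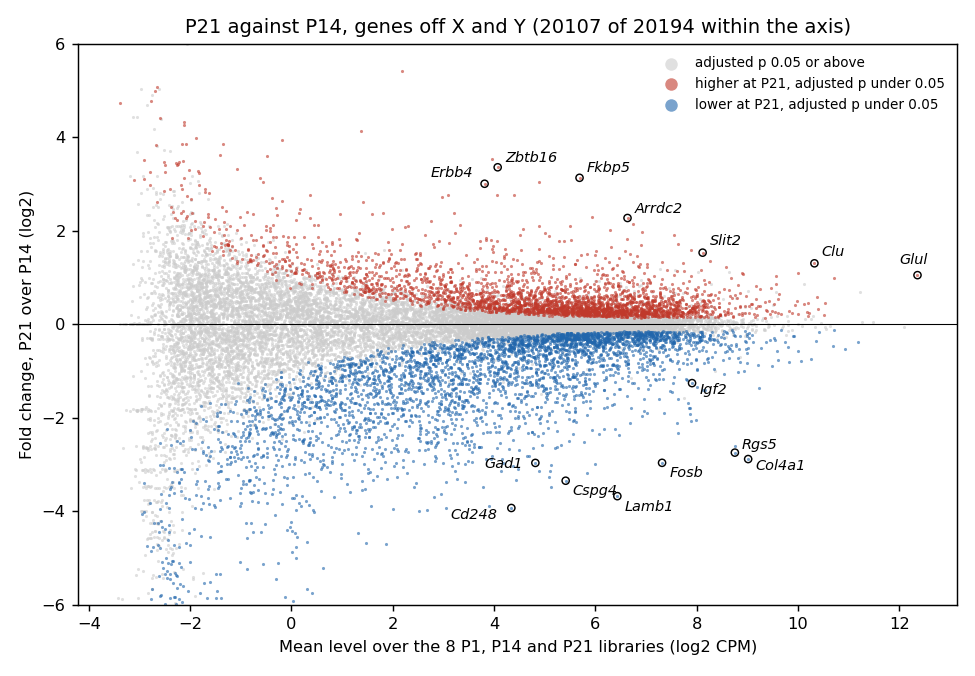
Log2 fold change (P21 over P14) against mean level (log2 CPM over the 8 P1, P14 and P21 libraries) for each gene off X and Y, red where higher and blue where lower at an adjusted p under 0.05. Named genes of the higher side (Zbtb16, Fkbp5, Erbb4, Arrdc2, Slit2, Clu, Glul) and of the lower side (Cd248, Lamb1, Cspg4, Rgs5, Col4a1, Fosb, Gad1, Igf2) are circled, and the lower side holds more genes past 2-fold, 1865 against 544.

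Gene lists put these genes into biological groups. Vessel wall, matrix, microglia, immediate early and cell cycle genes were mainly lower at P21, whereas clock and glucocorticoid-responsive genes were mainly higher, and more Müller glia genes were higher (13 of 32) than lower (3). A list's share of called members is set beside the 14.7% and 19.2% of all genes, with no test of the list as a whole. Counts given for left-out libraries do not cover the other alternative fits, some of which called fewer members.

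**Figure D2:**
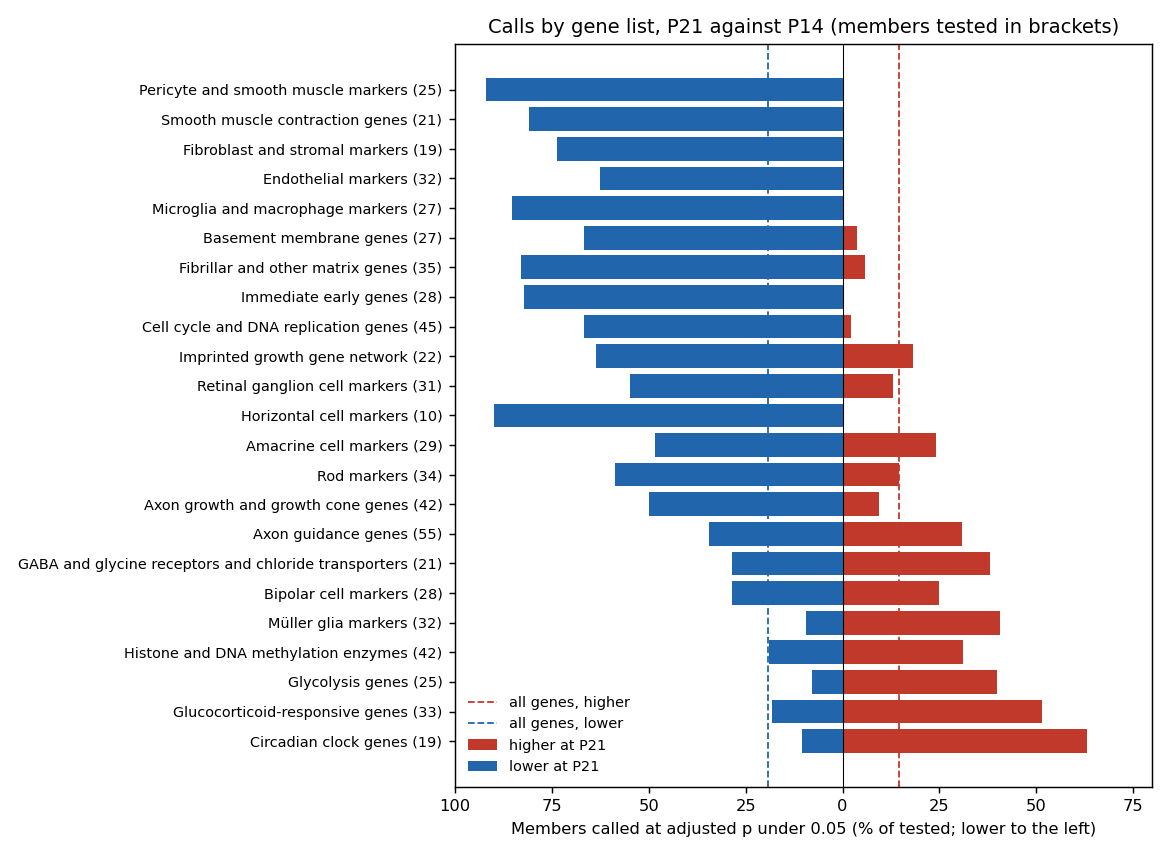
Share of each list's tested members (% on the horizontal axis, number tested in brackets) that was lower (blue, to the left) or higher (red, to the right) at P21 at an adjusted p under 0.05, with the shares over all genes, 19.2% lower and 14.7% higher, as dashed lines. Pericyte and smooth muscle markers reach 92% lower and circadian clock genes 63.2% higher.

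Mural cells, the pericytes and smooth muscle cells that wrap vessels, had the lowest median of the 54 lists tested. Of 25 pericyte and smooth muscle markers tested, 23 were lower and none higher, with a median log2 fold change of −2.58. Rgs5, a brake on G-protein signaling and a defining pericyte gene (chr1:169655501-169695813, GRCm38), lay at 2534, 2518 and 2294 CPM at P14 and at 462 and 269 CPM at P21 (log2 −2.74 ± 0.55 SE; adjusted p = 0.00454). Cspg4, the NG2 proteoglycan on the pericyte surface, fell from 300.5, 272 and 246 CPM to 30.4 and 23.2 CPM (10.2-fold; adjusted p = 0.00072). Kcnj8 and Abcc9 encode the pore and the regulatory subunit of the ATP-sensitive potassium channel of pericytes, and the pair fell alike: Kcnj8 from 140.1 ± 9.48 to 14.0 ± 0.679 CPM (adjusted p = 0.000709) and Abcc9 from 351 ± 56.3 to 38.5 ± 8.46 CPM (9.10-fold; adjusted p = 0.000468). Ednra, the receptor through which endothelin contracts vessels, fell 11.2-fold, from 92.6, 84.3 and 81.4 CPM to 10.02 and 5.28 CPM (adjusted p = 0.000401). Pdgfrb, the receptor that recruits pericytes to endothelium, fell less, 3.01-fold, from 564 ± 56.3 to 187 ± 6.53 CPM (adjusted p = 0.000589). For each of these genes every P21 library lay below every P14 library. The rule that chose Cspg4, Kcnj8, Abcc9 and Ednra required this, so it is a description. At P1 the same genes were low, with Rgs5 at 106 CPM and Kcnj8 at 5.76 CPM on average. No marker of the list was called higher in any of the 20 fits compared.

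Contractile genes were lower as well. Of 21 smooth muscle contraction genes, 17 were lower and none higher (median log2 −1.43). Acta2, smooth muscle actin, lay at 212, 225 and 228 CPM at P14 and at 71.5 and 36.0 CPM at P21 (4.12-fold lower; adjusted p = 0.00381). Myl9, the regulatory myosin light chain, fell from 209.9 ± 8.91 to 49.7 ± 10.6 CPM (adjusted p = 0.000504), Cald1, the actin-binding caldesmon, from 255 ± 20.6 to 75.4 ± 15.04 CPM (adjusted p = 8.73e-05), and Cnn2, a calponin, from 62.2 ± 4.46 to 10.1 ± 3.01 CPM (adjusted p = 0.00107). Srf encodes serum response factor, which binds the CArG box in promoters of contractile and immediate early genes, and it fell 1.76-fold, from 81.2, 79.8 and 80.1 CPM to 41.1 and 50.3 CPM (adjusted p = 0.000134). Of the 18 RefSeq promoters (300 bases, GRCm38.p6) that matched 16 of these genes, 3 (16.7%) hold a CArG box on either strand, those of Cnn2, Myl9 and Srf, against 1.63% of all 32851 promoters. The promoters of Myl9 (chr2:156775214-156775513, plus strand) and Srf (chr17:46556113-46556412, minus strand) are shown because both genes fell, with the CArG boxes in capitals, the first base of each at −161 from the start site in Myl9 and at −82 and −62 in Srf. A match describes the letters of the sequence and does not show that the factor is bound. Motif shares here and below depend on which genes a list holds and do not bear on the change between the ages.
Myl9: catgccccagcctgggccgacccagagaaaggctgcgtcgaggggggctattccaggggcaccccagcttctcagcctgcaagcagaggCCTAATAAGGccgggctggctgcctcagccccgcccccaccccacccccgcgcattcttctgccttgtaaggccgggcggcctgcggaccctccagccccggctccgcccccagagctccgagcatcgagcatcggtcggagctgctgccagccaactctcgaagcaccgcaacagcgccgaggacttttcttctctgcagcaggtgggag
Srf: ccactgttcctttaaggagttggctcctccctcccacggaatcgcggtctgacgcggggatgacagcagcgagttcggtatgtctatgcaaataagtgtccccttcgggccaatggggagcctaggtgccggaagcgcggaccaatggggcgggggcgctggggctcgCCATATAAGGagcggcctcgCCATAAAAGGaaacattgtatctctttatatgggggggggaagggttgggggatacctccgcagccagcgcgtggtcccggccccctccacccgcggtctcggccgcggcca

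Endothelial genes did not move as one. Of 32 markers tested, 20 were lower and none higher (median log2 −1.37). Their summed share of counts was not lower, at 0.241% to 0.258% at P14 and 0.265% and 0.267% at P21. This share leans heavily on Flt1 and Kdr, whose levels are given below, and does not describe the other markers. Tie1, an orphan receptor of the angiopoietin system, lay at 73.4, 68.9 and 57.9 CPM at P14 and at 11.8 and 5.68 CPM at P21 (7.60-fold lower; adjusted p = 0.00162). Vwf, the platelet-binding von Willebrand factor, fell from 35.1 ± 3.87 to 6.03 ± 0.964 CPM (adjusted p = 3.1e-05), and Cldn5, the tight junction protein of barrier endothelium, from 43.1 ± 4.997 to 8.60 ± 4.43 CPM (adjusted p = 0.000703). The major receptors of vascular endothelial growth factor (VEGF) were not among the lower genes. Flt1, a receptor that acts mostly as a decoy, lay at 306, 292 and 278 CPM at P14 and at 656 and 657 CPM at P21, 2.25-fold higher without overlap (adjusted p = 0.055 with the 8 libraries and 2.94e-08 with the 5 libraries alone). Kdr, the main signaling receptor, lay at 896, 857 and 849.6 CPM and at 1004 and 1035 CPM (adjusted p = 0.329, and 0.00118 with the 5 libraries). These are 2 of the 4 members that the 5-library fit, and the fit without P1 replicate 3, called higher. Kdr is also known in neurons and Müller glia of the retina.

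Signals between endothelium and mural cells were also mainly lower. Of 36 angiogenic signaling genes, 23 were lower and 2 higher (median log2 −0.739), with 6 higher without P1 replicate 3 and 1 without P14 replicate 1, P14 replicate 3 or P21 replicate 2. Pdgfb, the endothelial ligand of Pdgfrb, fell 4.57-fold, from 17.0, 14.8 and 14.2 CPM to 3.94 and 2.73 CPM (adjusted p = 9.98e-05). Angpt2, which destabilizes vessels during sprouting, fell from 35.3 ± 0.935 to 9.61 ± 4.53 CPM (adjusted p = 0.00145), and Dll4, the Notch ligand of tip cells, from 6.84 ± 1.45 to 1.61 ± 0.603 CPM (adjusted p = 0.000318). Aplnr, the apelin receptor of growing vessels, fell 10.3-fold, from 15.98, 14.4 and 14.2 CPM to 2.12 and 0.729 CPM (adjusted p = 0.00072). Vegfa, the growth factor that glia and neurons supply, was not called, at 1129 ± 12.5 and 1006 ± 42.1 CPM (adjusted p = 0.0851, and 0.0077 with the 5 libraries). In the TGF-beta and BMP pathway, 15 of 38 genes were lower and 2 higher (median log2 −0.306), and the higher count was 5 without P1 replicate 3 and 0 without any 1 of the P14 or P21 libraries. Tgfb1 fell 5.53-fold, from 15.3 ± 1.07 to 2.76 ± 0.431 CPM (adjusted p = 5.74e-05). Tgfb2, the isoform that Müller glia make, lay at 437 ± 14.7 and 383 ± 19.02 CPM and was not called (adjusted p = 0.336, and 0.0121 with the 5 libraries).

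Basement membrane and matrix genes were mainly lower. Col4a1 and Col4a2, the paired chains of the main collagen of basement membranes, fell 7.37-fold and 6.11-fold: Col4a1 from 2323, 2187 and 1963 CPM to 335 and 250.4 CPM (adjusted p = 4.1e-05) and Col4a2 from 1568, 1473 and 1335 CPM to 268 and 209 CPM (adjusted p = 1.9e-05). Of the laminins, Lama4, the vascular alpha chain, fell 11.2-fold, from 147, 142 and 117 CPM to 15.02 and 8.99 CPM (adjusted p = 1.61e-05), whereas Lama5 lay at 281 ± 3.75 and 352 ± 8.30 CPM (adjusted p = 0.381, and 0.000159, higher, with the 5 libraries). Nid1, the nidogen that links laminin to collagen, fell from 360.0 ± 49.2 to 45.3 ± 13.5 CPM (adjusted p = 0.000703). In all, 18 of 27 basement membrane genes were lower and 1 higher (median log2 −0.844), with 3 higher without P1 replicate 3 and 0 without P14 replicate 1, P14 replicate 3 or P21 replicate 1. Among 35 fibrillar and other matrix genes, 29 were lower and 2 higher (median log2 −1.15), the higher count being 1 without P14 replicate 1, P14 replicate 3 or P21 replicate 2. Tnc, the tenascin of growing tissue, fell 8.57-fold, from 81.7, 77.9 and 73.2 CPM to 9.32 and 8.78 CPM (adjusted p = 1.24e-05), and Fn1, fibronectin, fell from 813 ± 71.2 to 187 ± 47.6 CPM (adjusted p = 0.000539). Sparc, a collagen-binding protein that glia also make, lay at 2967 ± 167 and 2857 ± 48.7 CPM and was not called (adjusted p = 0.842). Of 19 fibroblast and stromal markers, 14 were lower and none higher (median log2 −1.76), with 1 higher in the 5 libraries alone. Pdgfra, which marks fibroblasts and also retinal astrocytes, fell from 551, 544 and 488 CPM to 179.9 and 89.2 CPM (adjusted p = 0.00347), and the defining fibroblast gene Dcn was near absent in all, at 0.804 ± 0.132 and 0.591 ± 0.0669 CPM.

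Receptors for this matrix were mostly lower. Of 27 integrin and focal adhesion genes, 17 were lower and 3 higher (median log2 −0.574), the higher count being 5 without P1 replicate 3 and 1 without P14 replicate 3. Itga1, the collagen receptor of mural cells, fell 8.85-fold, from 213 ± 23.9 to 24.0 ± 6.95 CPM (adjusted p = 0.00163), and its partner Itgb1 fell 1.95-fold, from 315 ± 13.5 to 162 ± 22.02 CPM (adjusted p = 3.45e-05). Itgb8, which neural cells use to activate latent TGF-beta, rose from 34.4, 34.5 and 28.8 CPM to 54.0 and 49.0 CPM (adjusted p = 0.0194).

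**Figure D3:**
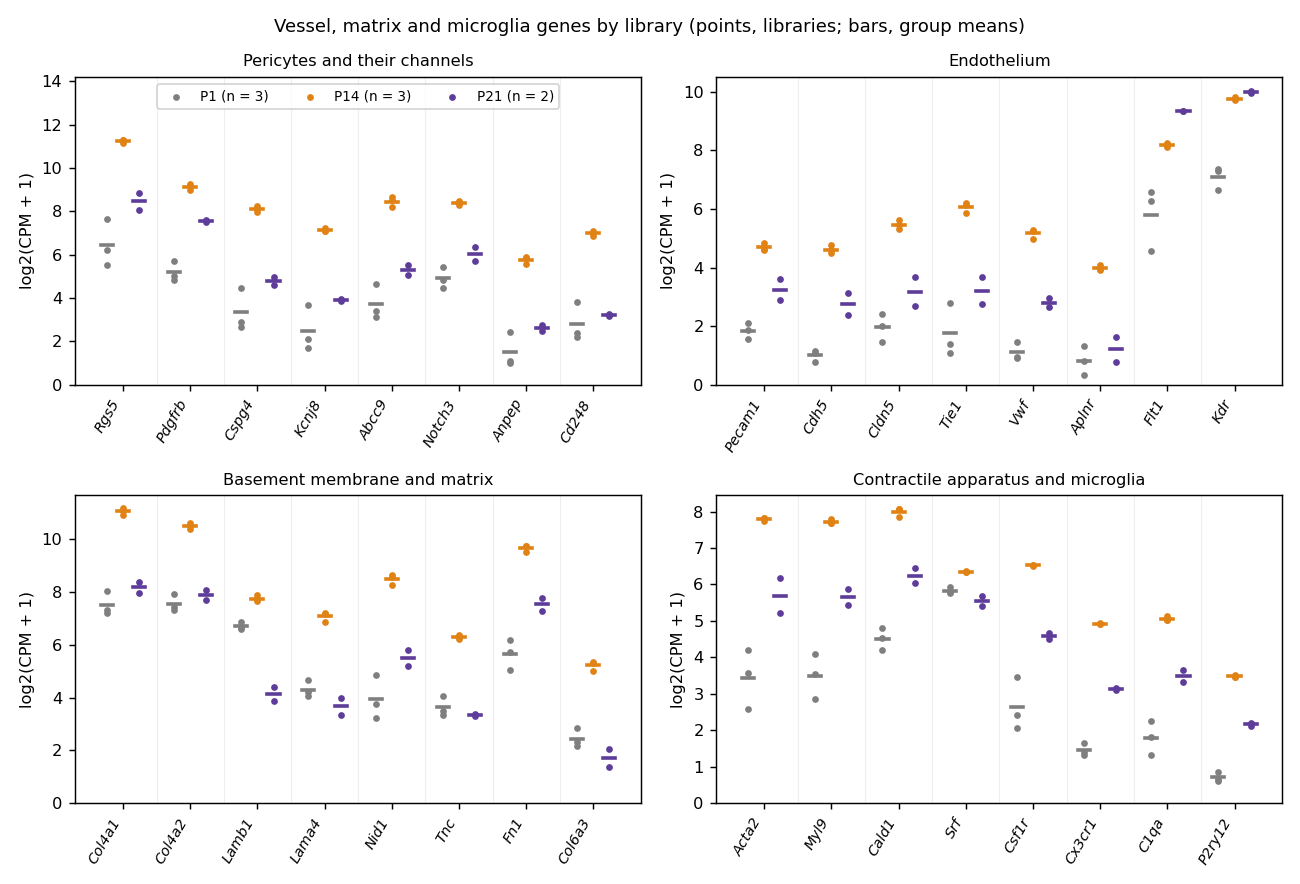
Level of vessel, matrix and microglia genes as log2(CPM + 1) on the vertical axis, 1 point per library and a bar at each group mean, for P1 (grey, n = 3), P14 (orange, n = 3) and P21 (purple, n = 2). P21 lies below P14 for every gene drawn except Flt1 and Kdr, as with Rgs5 at 2294 to 2534 CPM at P14 and 269 and 462 CPM at P21.

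Microglia are the resident macrophages that prune synapses. Of 27 microglia and macrophage markers, 23 were lower and none higher (median log2 −1.66), and with the 5 libraries all 27 were lower. Csf1r, the receptor on which microglia depend, lay at 90.5, 92.5 and 91.6 CPM at P14 and at 21.5 and 24.4 CPM at P21 (3.99-fold lower; adjusted p = 0.00118). Cx3cr1, the fractalkine receptor, fell from 29.3 ± 0.283 to 7.75 ± 0.220 CPM (adjusted p = 1.06e-05), and Trem2, the lipid sensor of phagocytic microglia, from 8.88 ± 0.360 to 1.73 ± 0.481 CPM (adjusted p = 0.00235). The chains of complement C1q that microglia secrete fell together, C1qa from 32.3 ± 1.61 to 10.3 ± 1.93 CPM (adjusted p = 0.000813), C1qb from 33.0 ± 3.03 to 10.04 ± 2.68 CPM (adjusted p = 0.000717) and C1qc from 32.4 ± 1.51 to 7.80 ± 1.77 CPM (adjusted p = 0.000295). C4b, a later component of the cascade, lay at 15.3, 14.1 and 14.0 CPM at P14 and at 101 and 96.7 CPM at P21 (6.84-fold higher; adjusted p = 0.00351), and C3, the central component, rose 5.25-fold from 4.01, 5.64 and 6.15 CPM to 31.8 and 23.6 CPM (adjusted p = 4.16e-05). The microglia markers held 0.0525% to 0.0549% of counts at P14 and 0.0145% and 0.0171% at P21.

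More Müller glia genes were higher than lower at P21, but the call of many rested on which libraries set the spread. Of 32 markers tested, 13 were higher and 3 lower (median log2 0.633), 27 were higher without P1 replicate 3 or with the 5 libraries alone, and 5 or 6 were higher without any 1 of the P14 or P21 libraries. Acsl3, a fatty acid activating enzyme, lay at 1293, 1298 and 1308 CPM at P14 and at 2752 and 2849 CPM at P21 (2.16-fold higher; adjusted p = 0.0113). Hes5, a Notch target that keeps the glial state, rose from 22.6 ± 1.93 to 49.0 ± 6.85 CPM (adjusted p = 0.00061), Trf, which carries iron, from 3.69 ± 0.837 to 9.52 ± 0.0189 CPM (adjusted p = 0.00162), and Slc6a11, a GABA transporter, from 920.3 ± 23.3 to 1306 ± 6.46 CPM (adjusted p = 0.00647). Glul lay at 8063, 7589 and 7978 CPM and at 15826 and 16874 CPM, 2.08-fold higher without overlap, but its call (adjusted p = 0.0421) was lost without any 1 of the P14 or P21 libraries, while the 5 libraries gave 1.33e-08. The same held for Aqp4, the water channel of glial endfeet (224 ± 9.08 and 567 ± 5.17 CPM; adjusted p = 0.0448, and 1.18e-08 with the 5 libraries), and Kcnj10, their potassium channel (302 ± 16.6 and 746 ± 12.7 CPM; adjusted p = 0.0494, and 1.7e-08). Rlbp1, which binds retinaldehyde for the cone visual cycle, was at 1846 ± 80.7 and 3381 ± 178 CPM (adjusted p = 0.0876, and 1.86e-07). Vim, the intermediate filament shared by Müller glia, astrocytes and vessel cells, lay at 799 ± 20.2 and 784 ± 35.1 CPM (adjusted p = 0.798).

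Astrocytes lie in the retina with the RGC axons and the surface vessels. Astrocyte markers were lower for 4 of 10 members and higher for 1 (median log2 −0.265, and −0.172 without P14 replicate 3 and −0.406 without P21 replicate 2), the higher count being 3 without P1 replicate 3 and 0 without any 1 of the P14 libraries or P21 replicate 2. Pax2, the transcription factor of retinal astrocytes, fell 3.62-fold, from 26.7, 27.1 and 27.6 CPM to 8.34 and 6.59 CPM (adjusted p = 6.33e-05), and S100b, a calcium-binding protein, fell from 126 ± 2.73 to 44.0 ± 18.3 CPM (adjusted p = 0.00411). Gfap, the astrocyte filament, lay at 393, 386 and 375 CPM and at 319.8 and 203 CPM and was not called (adjusted p = 0.0709, and 0.00905 with the 5 libraries).

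Among the RGC markers, 17 of 31 were lower and 4 higher (median log2 −1.03, and −2.40 without P21 replicate 1 and −0.646 without P21 replicate 2). Opn4, the melanopsin of light-sensitive RGCs, fell 6.24-fold, from 53.6, 59.0 and 54.6 CPM to 11.5 and 6.29 CPM (adjusted p = 2.07e-05), and Eomes, the T-box factor of those cells, fell from 36.3 ± 5.17 to 7.45 ± 4.06 CPM (adjusted p = 0.000203). Nefl, the light neurofilament chain, fell from 156, 167 and 162 CPM to 66.0 and 20.0 CPM (adjusted p = 0.00391), and Slc17a6, the glutamate transporter of RGC synaptic vesicles, from 38.8 ± 2.42 to 8.97 ± 7.02 CPM (adjusted p = 0.00169). The P21 libraries were unequal here: Pou4f1, the Brn3a factor that defines most RGCs, lay at 24.2 CPM in replicate 1 and 1.15 CPM in replicate 2, against 19.4, 21.2 and 33.7 CPM at P14, and was not called (adjusted p = 0.349). Rbpms, an RNA-binding protein found in nearly every RGC, was called lower (67.9 ± 6.79 and 34.3 ± 20.2 CPM; adjusted p = 0.0237), but not without P14 replicate 2 or P14 replicate 3. Against this trend, both nicotinic receptor subunits of the list rose with little spread, Chrnb3 from 46.7, 53.5 and 49.0 CPM to 121 and 113 CPM (adjusted p = 5.2e-06) and Chrna6 from 92.2, 103 and 90.6 CPM to 188 and 187 CPM (adjusted p = 1.53e-05).

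Amacrine cells, the inhibitory interneurons, held changes in both directions, with 14 of 29 markers lower and 7 higher (median log2 −1.13, and −0.561 without P21 replicate 2). Together the amacrine markers held 0.263% to 0.271% of counts at P14 and 0.26% and 0.261% at P21. The GABA-synthesizing enzymes fell: Gad1 from 124, 131 and 121 CPM to 14.7 and 17.4 CPM (7.80-fold; adjusted p = 0.00018) and Gad2 from 48.0, 56.3 and 48.8 CPM to 7.69 and 8.17 CPM (6.44-fold; adjusted p = 1.42e-06). Slc32a1, the transporter that loads GABA and glycine into vesicles, fell from 40.5 ± 1.69 to 11.4 ± 2.47 CPM (adjusted p = 0.000267), and Sst, the neuropeptide somatostatin, from 10.2, 20.8 and 11.7 CPM to 0.842 and 0 CPM (adjusted p = 0.0014). Slc6a9, the glycine transporter of glycinergic amacrine cells and Müller glia, rose from 40.8, 42.2 and 42.02 CPM to 85.6 and 69.7 CPM (adjusted p = 0.00192). Of 10 horizontal cell markers, 9 were lower (median log2 −1.17), with as few as 4 in an alternative fit. Calb1, a calcium buffer, fell from 51.5 ± 2.41 to 18.3 ± 2.47 CPM (adjusted p = 0.000194), and Lhx1, a factor of horizontal cell fate, from 12.2, 11.9 and 10.96 CPM to 3.56 and 1.82 CPM (adjusted p = 0.00584).

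Bipolar cells, which carry signals from photoreceptors to the inner retina, held changes in both directions. Of 28 markers, 7 were higher and 8 lower (median log2 0.125), and the higher count was 14 without P1 replicate 3, 4 without P14 replicate 1 and 3 without P21 replicate 2. Grik1, the kainate receptor subunit of OFF bipolar cells (chromosome 16), rose 3.91-fold, from 112, 123 and 113 CPM to 427 and 480.1 CPM (adjusted p = 0.00317), and its auxiliary subunit Neto1 rose from 25.9 ± 2.11 to 46.4 ± 0.253 CPM (adjusted p = 0.00244). Fezf2, a transcription factor of OFF bipolar cells, rose from 19.02, 19.1 and 20.9 CPM to 48.8 and 52.6 CPM (adjusted p = 0.00586). Prkca, the protein kinase C of rod bipolar cells, fell from 613, 599 and 561 CPM to 301 and 313 CPM (1.93-fold; adjusted p = 1.61e-05). Grm6, the glutamate receptor of ON bipolar cells, was at 956 ± 12.4 and 793 ± 104 CPM (adjusted p = 0.157, and 0.00651, lower, with the 5 libraries).

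Rod genes were mainly lower. Of 34 markers, 20 were lower and 5 higher (median log2 −0.45), with the higher count at 2 without any 1 of the P14 libraries and 1 without P21 replicate 2. Gnat1, the rod transducin, fell from 141 ± 14.0 to 56.5 ± 7.16 CPM (adjusted p = 0.000294). Of the factors that set rod fate, Nrl fell from 36.6 ± 5.01 to 9.16 ± 0.757 CPM (adjusted p = 1.87e-05) and Nr2e3 from 22.5, 17.6 and 22.4 CPM to 4.07 and 3.25 CPM (5.68-fold; adjusted p = 1.38e-05), while Crx, which acts in rods and cones, lay at 195 ± 1.49 and 214 ± 7.82 CPM (adjusted p = 0.114, and 0.0413, higher, with the 5 libraries). Gucy2e, the guanylate cyclase that restores cyclic GMP after light, rose from 32.9, 30.7 and 31.9 CPM to 66.6 and 69.9 CPM (adjusted p = 0.00141). Of 14 cone markers, 6 were lower and 3 higher (median log2 −0.232, and −0.148 without P21 replicate 1), and Opn1sw, the short-wavelength cone opsin, fell from 168, 147 and 147 CPM to 53.2 and 62.2 CPM (adjusted p = 3.1e-05). Rod markers together held 0.297% to 0.324% of counts at P14 and 0.256% and 0.264% at P21.

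**Figure D4:**
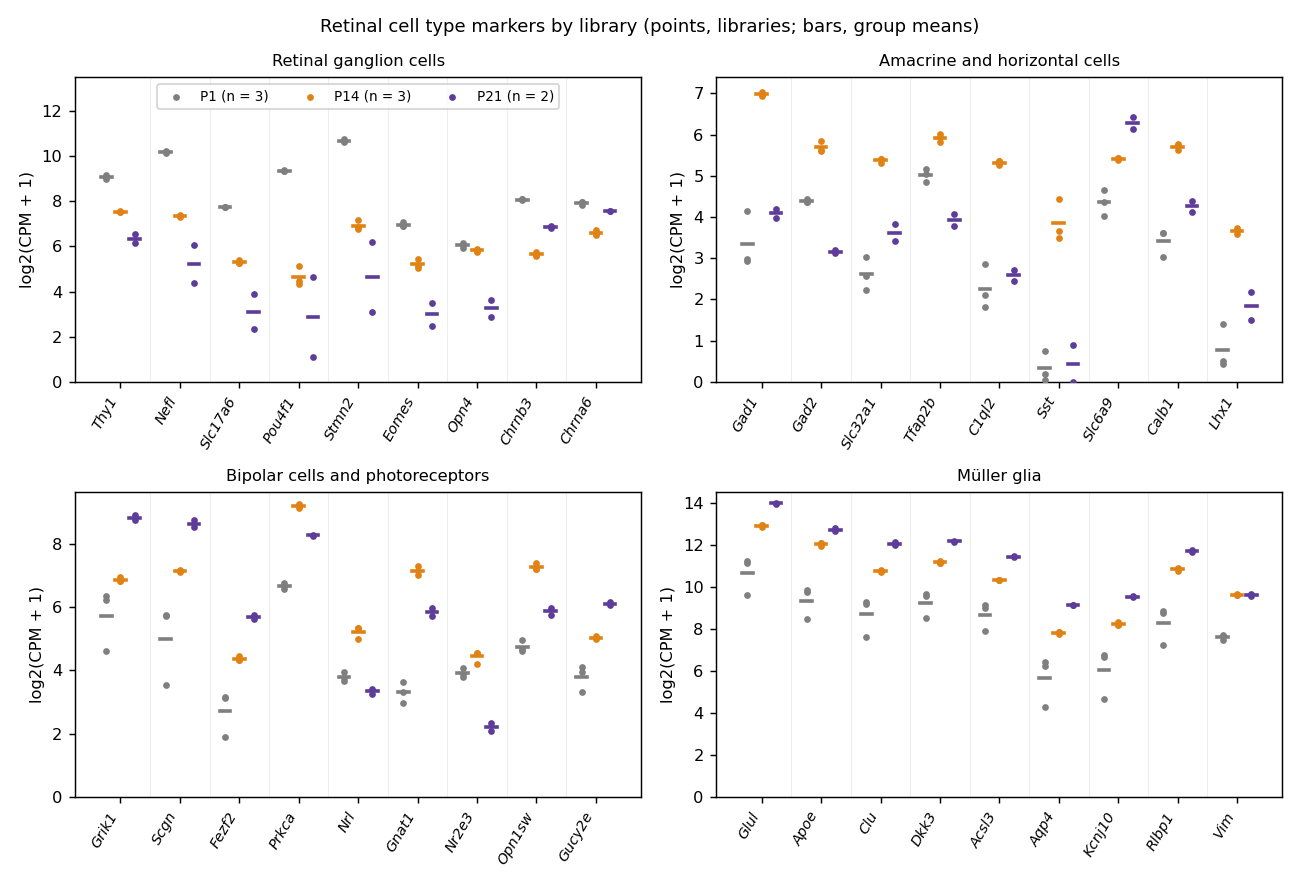
Level of retinal cell type markers as log2(CPM + 1) on the vertical axis, 1 point per library and a bar at each group mean, for P1 (grey, n = 3), P14 (orange, n = 3) and P21 (purple, n = 2). Gad1, Gnat1 and Opn4 lie lower at P21 and Grik1, Chrnb3 and Glul higher, while the P21 points of Pou4f1 (24.2 and 1.15 CPM) and Stmn2 (73.2 and 7.65 CPM) lie far apart.

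More genes of axon growth were lower (21 of 42) than higher (4), with a median log2 of −0.554 that was −0.248 without P21 replicate 2 and −0.971 without P21 replicate 1. As many as 32 were lower without P21 replicate 1, the library with the higher neurite genes. In single members the P21 pair lay far apart. Gap43, the growth cone phosphoprotein, lay at 46.8, 48.2 and 69.2 CPM at P14 and at 57.0 and 18.4 CPM at P21 (adjusted p = 0.291), and Tubb3, a neuronal tubulin, lay at 131, 141 and 179 CPM and at 116 and 33.7 CPM (adjusted p = 0.0755). Axon guidance genes moved both ways, with 17 of 55 higher and 19 lower (median log2 0.0121). Slit2, a repellent ligand, rose 2.90-fold, from 282, 284 and 268 CPM to 779.9 and 831 CPM (adjusted p = 0.00159), while its receptor Robo1 fell 2.76-fold, from 62.4, 60.6 and 53.0 CPM to 25.6 and 16.8 CPM (adjusted p = 0.000121). Epha3, an ephrin receptor, rose from 12.2 ± 1.74 to 38.1 ± 1.81 CPM (adjusted p = 0.000516), and Plxna4, a semaphorin receptor, from 37.2 ± 1.24 to 84.0 ± 2.13 CPM (adjusted p = 0.000221). Sema6d, a membrane semaphorin, fell 5.76-fold, from 134, 128 and 111 CPM to 25.5 and 17.6 CPM (adjusted p = 9.7e-06), and Ntn1, the attractant netrin, fell from 11.4 ± 2.31 to 1.84 ± 0.159 CPM (adjusted p = 3.4e-05).

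The chloride transporters moved in opposite directions. Slc12a5, the neuronal exporter KCC2, rose 1.81-fold, from 912, 930.1 and 874 CPM to 1545 and 1729 CPM (adjusted p = 0.000932), and Slc12a2, the importer NKCC1, fell 1.66-fold, from 102, 94.0 and 82.9 CPM to 55.5 and 56.2 CPM (adjusted p = 0.000186). Slc12a5 lay above its P1 mean of 389 CPM at both ages. Glra1, the adult glycine receptor subunit, rose from 8.82, 8.63 and 9.12 CPM to 30.6 and 28.9 CPM (3.35-fold; adjusted p = 0.00113), and Gabrb1, a GABA-A receptor subunit, from 7.51 ± 1.38 to 18.9 ± 0.700 CPM (adjusted p = 0.000208). In all, 8 of 21 inhibitory receptor and chloride transporter genes were higher and 6 lower (median log2 0.286, and 0.148 without P14 replicate 3 and 0.185 without P21 replicate 1). Of 59 sodium, potassium and calcium channel genes, 17 were higher and 26 lower (median log2 −0.282, and −0.138 without P21 replicate 2). Hcn4, a pacemaker channel, rose from 27.7, 28.9 and 29.9 CPM to 70.2 and 70.1 CPM (adjusted p = 2.31e-06), Cacna1h, a low-threshold calcium channel, rose from 334 ± 8.67 to 665 ± 32.3 CPM (adjusted p = 1.39e-05), and Kcnip1, a potassium channel partner, fell from 29.1, 32.6 and 30.5 CPM to 5.24 and 3.43 CPM (7.04-fold; adjusted p = 6.13e-06).

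Genes that respond to glucocorticoid were mainly higher at P21. Of 33 tested, 17 were higher and 6 lower (median log2 0.691), with as few as 7 higher in an alternative fit. The higher count was 9 without any 1 of the P14 libraries or P21 replicate 2 and 11 without P21 replicate 1. Fkbp5, the chaperone partner of the glucocorticoid receptor and its classic target (chr17:28399094-28517527, GRCm38), lay at 20.2, 14.0 and 16.8 CPM at P14 and at 145 and 155 CPM at P21, with 77.5 CPM on average at P1 (8.79-fold higher than P14; adjusted p = 2.82e-06). Plin4, a lipid droplet coat protein, rose from 1.44, 0.945 and 0.784 CPM to 18.1 and 19.3 CPM (17.6-fold; adjusted p = 0.000161), Hif3a, a hypoxia-inducible factor subunit, rose from 33.9, 37.4 and 35.9 CPM to 175 and 178 CPM (4.95-fold; adjusted p = 1e-05), and Arrdc2, an arrestin-domain protein, rose from 87.2 ± 3.51 to 423 ± 46.0 CPM (adjusted p = 0.00132). Mt2, a metallothionein that binds zinc, rose from 4.12 ± 0.341 to 17.0 ± 2.07 CPM (adjusted p = 0.00389), and Fam107a, an actin-bundling protein, from 50.3, 46.3 and 46.7 CPM to 166 and 164 CPM (adjusted p = 0.00989). The members that fell were Sgk1, a kinase of sodium transport, from 39.6 ± 1.68 to 13.3 ± 1.83 CPM (adjusted p = 1.45e-05), Dusp1, a phosphatase of MAP kinases that is also an immediate early gene, from 412 ± 4.87 to 264 ± 15.6 CPM (adjusted p = 4.26e-05), and Ccn1, a matrix protein that serum induces, from 628 ± 11.7 to 264 ± 3.29 CPM (adjusted p = 9.87e-05), besides 3 not described here. Nr3c1, the glucocorticoid receptor and no member of the list, lay at 72.5 ± 3.92 and 67.9 ± 4.70 CPM (adjusted p = 0.554). In P1 replicates 1, 2 and 3, Arrdc2 lay at 62.7, 64.4 and 19.8 CPM and Fam107a at 19.4, 22.2 and 4.20 CPM. Müller glia markers dipped likewise, at 0.804%, 0.862% and 0.369% of counts, whereas Fkbp5 dipped less, at 83.5, 80.7 and 68.2 CPM. Whether the larger share of Müller glia RNA at P21 raised members of this list was not tested.

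The receptor binds a palindrome, searched here as GNACA, then any 3 bases, then TGTNC. Of 39 RefSeq promoters (300 bases, GRCm38.p6) that matched 28 members, 6 (15.4%) hold this motif on either strand, in Fam107a, Map3k6, Mt1, Sgk1 and Slc10a6, against 0.475% of all 32851 promoters. The promoters of Fam107a (chr14:8309730-8310029, minus strand), Mt1 (chr8:94178839-94179138, plus strand) and Sgk1 (chr10:21993640-21993939, plus strand) are shown with the motif in capitals, because Fam107a rose while Sgk1 fell though both hold it. Mt1, a metallothionein, lay at 72.9 ± 5.31 and 203 ± 17.7 CPM, and its call (adjusted p = 0.0242) was lost without any 1 of the P14 libraries or P21 replicate 2, with 9.14e-08 in the 5 libraries. The first base of the match lies at −118, −94 and −188 from the start site in that order.
Fam107a: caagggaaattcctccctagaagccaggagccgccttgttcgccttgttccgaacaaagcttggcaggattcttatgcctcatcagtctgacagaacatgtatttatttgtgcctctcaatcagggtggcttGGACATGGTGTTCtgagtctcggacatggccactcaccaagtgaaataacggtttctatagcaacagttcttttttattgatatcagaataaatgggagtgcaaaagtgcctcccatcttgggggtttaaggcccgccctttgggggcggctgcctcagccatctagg
Mt1: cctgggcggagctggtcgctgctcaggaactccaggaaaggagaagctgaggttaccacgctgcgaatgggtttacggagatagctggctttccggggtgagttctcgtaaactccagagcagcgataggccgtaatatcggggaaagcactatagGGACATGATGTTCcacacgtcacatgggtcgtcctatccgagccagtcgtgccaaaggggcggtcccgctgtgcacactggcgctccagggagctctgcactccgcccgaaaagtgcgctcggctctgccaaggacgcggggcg
Sgk1: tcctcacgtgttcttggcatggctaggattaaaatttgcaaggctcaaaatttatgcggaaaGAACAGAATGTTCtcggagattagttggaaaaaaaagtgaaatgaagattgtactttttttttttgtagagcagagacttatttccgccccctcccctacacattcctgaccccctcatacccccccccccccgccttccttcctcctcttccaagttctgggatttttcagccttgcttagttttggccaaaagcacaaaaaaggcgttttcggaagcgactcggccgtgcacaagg
A match is a description of the letters, and binding was not measured. The list was chosen for its response to the hormone, so its motif share does not bear on the change between the ages.

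The circadian clock runs as a loop in which Arntl and Clock drive Per, Cry and Nr1d genes, whose products feed back. Of 19 clock genes, 12 were higher and 2 lower (median log2 0.432), with as few as 2 higher in an alternative fit. The higher count was 16 without P1 replicate 3 or with the 5 libraries alone, 6 without P14 replicate 1, and 5 without P14 replicate 2, P14 replicate 3 or P21 replicate 2. Nr1d1, the repressor REV-ERB alpha, rose from 256, 256 and 242 CPM to 533 and 576 CPM (2.21-fold; adjusted p = 0.00168), and Cry2, a repressor of the loop, rose from 154, 165 and 162 CPM to 264 and 286 CPM (1.72-fold; adjusted p = 0.000188). The ROR factors, which activate Arntl, rose less, Rora from 97.7 ± 3.39 to 132 ± 5.76 CPM (adjusted p = 0.000986) and Rorb from 119 ± 1.74 to 156 ± 1.02 CPM (adjusted p = 0.00158). Arntl itself fell, from 87.2, 90.5 and 84.8 CPM to 71.6 and 69.9 CPM (1.24-fold; adjusted p = 0.00217), and so did Nfil3, the repressor that opposes the PAR factors, from 14.6 ± 1.09 to 10.6 ± 0.157 CPM (adjusted p = 0.00679). The PAR factor genes Dbp (201 ± 8.19 and 395 ± 25.9 CPM; adjusted p = 0.0385) and Tef (444 ± 6.12 and 599.5 ± 29.5 CPM; adjusted p = 0.0199) were called higher but lost the call without any 1 of the P14 libraries or P21 replicate 2, and Dbp also without P21 replicate 1, while the 5 libraries gave 2.45e-07 for Dbp and 2.22e-05 for Tef. The hour at which tissue was taken is not given in the sources used here, and it cannot be told apart from age.

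Arntl and Clock bind the E-box CACGTG. Of 23 RefSeq promoters that matched 17 clock genes, 6 (26.1%) hold it, those of Bhlhe41, Ciart, Cry1, Per1 and Tef, against 7.15% of all promoters. The sequence reads the same on both strands. Clock genes were listed for their place in the loop, so this share does not bear on the change between the ages either. The promoters of Ciart (chr3:95882179-95882478, minus strand), a repressor of the loop, and of Tef (chr15:81802423-81802722, plus strand) are shown with the E-boxes in capitals, at −116, −58 and −44 in Ciart and at −127 in Tef. Ciart lay at 69.0, 70.1 and 74.0 CPM at P14 and at 115 and 144 CPM at P21 (adjusted p = 0.0223, and 1.26e-05 with the 5 libraries), a call lost without any 1 of the P14 libraries or P21 replicate 2.
Ciart: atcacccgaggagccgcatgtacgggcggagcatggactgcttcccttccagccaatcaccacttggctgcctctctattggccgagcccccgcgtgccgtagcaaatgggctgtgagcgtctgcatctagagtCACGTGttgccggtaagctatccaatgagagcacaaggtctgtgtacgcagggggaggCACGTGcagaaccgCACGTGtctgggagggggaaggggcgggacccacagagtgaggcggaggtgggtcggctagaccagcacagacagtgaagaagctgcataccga
Tef: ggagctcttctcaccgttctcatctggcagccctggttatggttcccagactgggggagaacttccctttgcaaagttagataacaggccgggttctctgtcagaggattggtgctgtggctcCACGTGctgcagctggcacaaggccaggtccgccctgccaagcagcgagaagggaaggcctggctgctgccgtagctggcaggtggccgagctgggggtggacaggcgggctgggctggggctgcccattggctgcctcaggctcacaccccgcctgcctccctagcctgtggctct

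Immediate early genes, which neurons and other cells switch on within minutes of activity or handling, were lower at P21. Of 28 tested, 23 were lower and none higher (median log2 −0.95). Fosb, a partner of Jun in the AP-1 factor, fell 7.79-fold, from 559.7, 584 and 549 CPM to 74.6 and 70.3 CPM (adjusted p = 2.12e-05), whereas Fos fell 1.86-fold, from 1657, 1639 and 1594 CPM to 835 and 922 CPM (adjusted p = 1e-05), and Jun 2.02-fold, from 997 ± 7.18 to 495 ± 14.2 CPM (adjusted p = 4.76e-06). Arc, which moves AMPA receptors at synapses, fell from 140.2, 134 and 125 CPM to 28.3 and 24.6 CPM (5.01-fold; adjusted p = 0.000116). Atf3, induced by axon injury and stress, fell 15.4-fold, from 22.2, 21.5 and 22.1 CPM to 1.41 and 1.43 CPM (adjusted p = 0.000167), and Klf4, a repressor of axon growth in RGCs that is also a vessel gene, fell from 37.8, 40.1 and 35.6 CPM to 6.57 and 6.04 CPM (5.98-fold; adjusted p = 1.51e-05). For all of these the P14 and P21 libraries did not overlap. The names were chosen by rule or after their values were seen, so this is a description. RefSeq promoters matched 23 of these genes, and those of 2, Egr2 and Zfp36, hold a CArG box, which makes 5 of 29 promoters (17.2%, against 1.63% of all promoters). Zfp36, an RNA-decay factor, fell from 234 ± 7.52 to 137 ± 5.75 CPM (adjusted p = 2.39e-05). Of 23 heat shock genes, 8 were lower and 2 higher (median log2 −0.063), and the inducible HSP70 genes were among the lower, Hspa1a from 27.9, 29.8 and 29.7 CPM to 6.38 and 6.14 CPM (4.65-fold; adjusted p = 6.3e-06) and Hspa1b from 36.4 ± 1.37 to 14.1 ± 0.127 CPM (adjusted p = 6.58e-06). These paralogs are nearly identical, so the split of reads between them is uncertain.

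Growth genes of the imprinted network were mainly lower, with 14 of 22 lower and 4 higher (median log2 −0.402). Igf2, the fetal insulin-like growth factor, fell from 807, 767 and 788 CPM to 348 and 311 CPM (2.39-fold; adjusted p = 0.000542), and H19, the noncoding RNA beside it on chromosome 7, fell 9.57-fold, from 80.7, 78.1 and 70.4 CPM to 10.2 and 5.62 CPM (adjusted p = 1.69e-05). Dlk1, a Notch-like ligand of immature cells, lay at 3.86, 3.87 and 4.04 CPM at P14 and at 0.109 and 0.0607 CPM at P21 (adjusted p = 0.000198). Zim1, an imprinted zinc finger gene, went up, from 5.06, 5.89 and 7.26 CPM to 19.7 and 19.3 CPM (3.20-fold; adjusted p = 2.47e-05). Of 28 insulin and IGF pathway genes, 8 were higher and 12 lower (median log2 −0.0655). Igf1r, the IGF receptor, rose from 163 ± 6.16 to 265 ± 1.51 CPM (adjusted p = 2.12e-05) and Insr, the insulin receptor, from 136 ± 8.50 to 214 ± 8.28 CPM (adjusted p = 9.1e-05), while Igf2r, the receptor that clears Igf2, fell from 102 ± 5.77 to 77.1 ± 1.14 CPM (adjusted p = 0.000958). Of the binding proteins, Igfbp7, a vessel protein, fell from 341 ± 24.6 to 66.8 ± 10.99 CPM (adjusted p = 0.00145) and Igfbp2 from 95.8 ± 7.26 to 29.4 ± 5.53 CPM (adjusted p = 5.6e-05). Igf1 was not called, at 43.0 ± 2.77 and 51.5 ± 9.60 CPM (adjusted p = 0.0772).

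ErbB receptors bind epidermal growth factor, neuregulins and their relatives. Erbb4, a neuregulin receptor on chromosome 1, rose 8.05-fold, from 7.87, 7.37 and 7.31 CPM to 56.9 and 64.2 CPM (adjusted p = 0.000188), and Egfr rose 3.43-fold, from 47.7, 45.2 and 41.7 CPM to 155 and 153 CPM (adjusted p = 0.00551). Erbb2, the coreceptor without a ligand, lay at 38.9 ± 2.18 and 41.2 ± 1.45 CPM (adjusted p = 0.705). Hbegf, a ligand of both called receptors, fell from 19.9, 18.5 and 17.1 CPM to 6.65 and 4.92 CPM (3.18-fold; adjusted p = 2.78e-05), and Nrg1 lay at 10.3 ± 1.08 and 8.35 ± 0.517 CPM (adjusted p = 0.0715). In all, 3 of 14 genes were higher and 4 lower. For ciliary neurotrophic factor, a pair of receptor chains rose, Cntfr, the ligand-binding chain, from 87.6, 85.5 and 84.2 CPM to 269.7 and 287 CPM (3.25-fold; adjusted p = 9.57e-06) and Il6st, the signaling chain they share, from 198 ± 10.5 to 335 ± 10.3 CPM (adjusted p = 0.000324), with Lifr at 35.9 ± 1.504 and 37.3 ± 2.56 CPM (adjusted p = 0.634). Ntrk2, the receptor of brain-derived neurotrophic factor, fell from 447 ± 20.6 to 267 ± 35.6 CPM (adjusted p = 0.000136), and Bdnf lay at 12.2 ± 0.724 and 11.3 ± 1.07 CPM (adjusted p = 0.481). Of the 23 neurotrophin, GDNF and related cytokine genes, 7 were higher and 7 lower (median log2 −0.105), with 4 higher without P21 replicate 1.

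**Figure D5:**
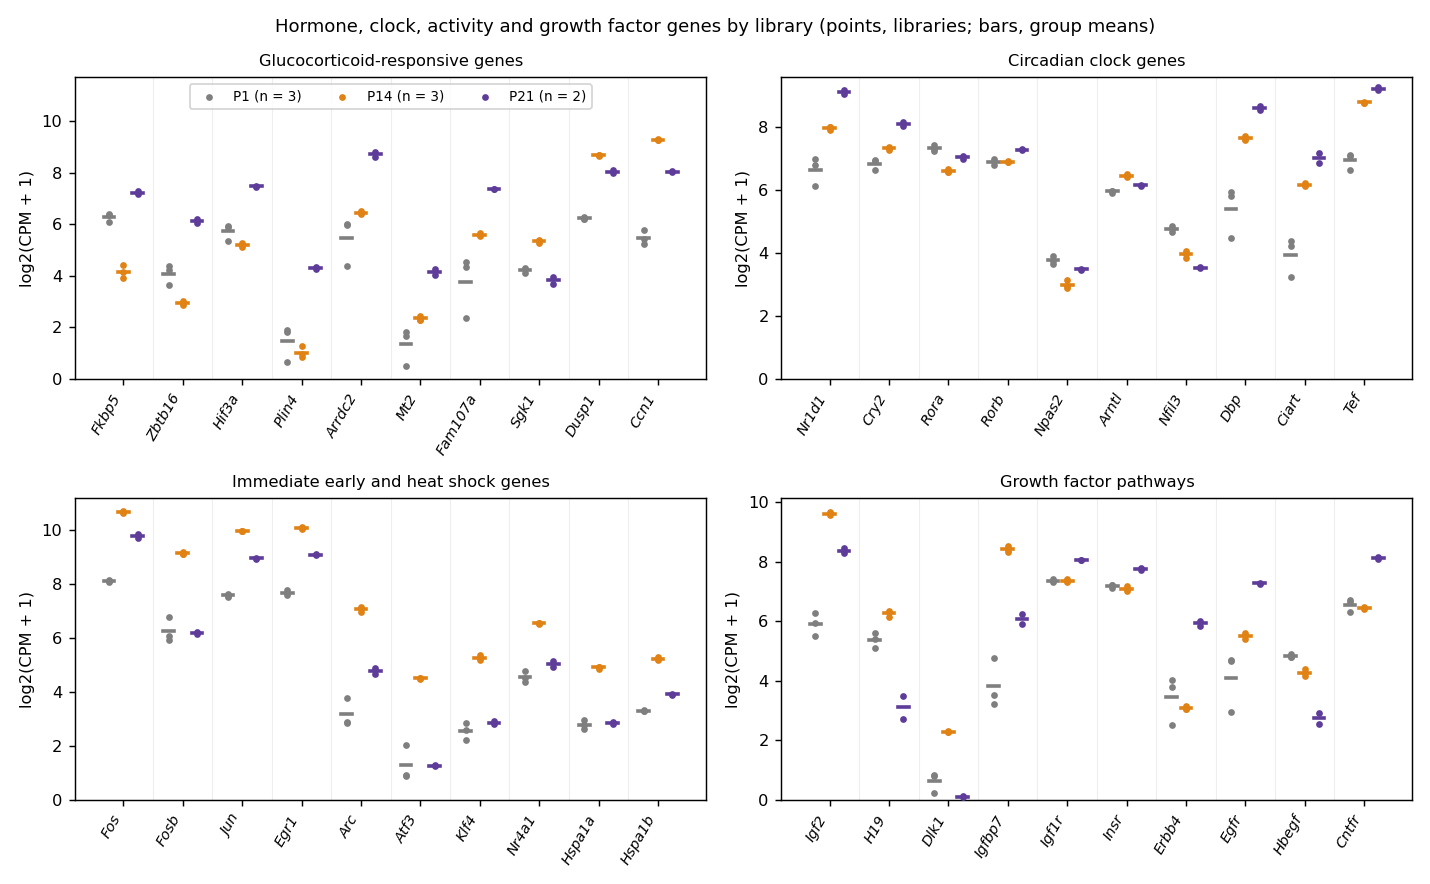
Level of glucocorticoid-responsive, clock, immediate early and heat shock, and growth factor genes as log2(CPM + 1) on the vertical axis, 1 point per library and a bar at each group mean, for P1 (grey, n = 3), P14 (orange, n = 3) and P21 (purple, n = 2). Fkbp5, Hif3a and Erbb4 lie higher at P21 than at P14 and Fosb, Atf3 and H19 lower, and the libraries of an age lie close together for each, as with Fosb at 549 to 584 CPM at P14 and 70.3 and 74.6 CPM at P21.

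Genes of proliferating cells were mainly lower at P21. Of 45 cell cycle and DNA replication genes, 30 were lower and 1 higher (median log2 −0.772), with 2 higher without P1 replicate 2 or P1 replicate 3. Top2a, the topoisomerase of dividing cells, fell from 14.0, 15.6 and 12.9 CPM to 2.47 and 1.06 CPM (7.89-fold; adjusted p = 3.48e-05), Mki67, the proliferation antigen, from 21.8, 25.5 and 18.9 CPM to 4.998 and 0.850 CPM (7.37-fold; adjusted p = 0.00109), and Ccnd1, the cyclin D of retinal progenitors and Müller glia, from 112 ± 4.18 to 54.7 ± 3.45 CPM (adjusted p = 1e-05). Enzymes of histone and DNA methylation moved both ways, with 13 of 42 higher and 8 lower (median log2 0.0836). The counts were as low as 5 higher and 3 lower in alternative fits. Ezh2, the H3K27 methyltransferase of dividing cells, fell from 40.9, 44.8 and 41.6 CPM to 25.9 and 26.2 CPM (1.63-fold; adjusted p = 0.000103), its homolog Ezh1, found in resting cells, rose from 58.9, 59.3 and 61.2 CPM to 100.5 and 109 CPM (1.75-fold; adjusted p = 2.91e-05), and Cbx7, a reader of that mark, rose from 38.1 ± 1.51 to 79.9 ± 0.283 CPM (adjusted p = 2.41e-05). Uhrf1, which brings Dnmt1 to replicating DNA, fell from 5.92 ± 0.299 to 1.39 ± 0.681 CPM (adjusted p = 0.000191), while Dnmt1 lay at 116 ± 2.12 and 124 ± 1.19 CPM (adjusted p = 0.27). Kdm6b, the H3K27 demethylase encoded off the X chromosome, was not called, at 149 ± 3.02 and 137 ± 4.27 CPM (adjusted p = 0.123).

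Several of the DEGs with the largest fold changes (mean log2 CPM of at least 3) belong to no list described above. Gsg1, best known from germ cells, rose 8.25-fold, from 21.0, 22.7 and 24.7 CPM to 175 and 201 CPM (adjusted p = 0.0031). Ptk2b, a calcium-activated kinase, rose from 4.91 ± 0.731 to 33.6 ± 3.73 CPM (6.85-fold; adjusted p = 4.52e-05), Mpp3, a membrane scaffold of photoreceptor and Müller cell contacts, from 63.4 ± 2.28 to 282 ± 26.3 CPM (4.44-fold; adjusted p = 3.63e-06), and Lgr5, an R-spondin receptor of the Wnt pathway, from 6.40, 6.58 and 6.86 CPM to 29.6 and 28.5 CPM (4.39-fold; adjusted p = 1e-05). On the lower side, Rasgrp1, a Ras activator, fell from 37.0 ± 2.05 to 3.54 ± 1.61 CPM (10.4-fold; adjusted p = 3.02e-05), and Fibcd1, a chitin-binding membrane protein, from 22.1 ± 0.911 to 2.22 ± 0.338 CPM (9.95-fold; adjusted p = 1.81e-05).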

How the data were processed

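Poly-A RNA of Thy1.2-positive mouse retinal cells was sequenced with an unstranded kit. The authors deposited raw read counts per gene in 1 table, and per the submitters' processing notes used FastQC 0.11.9, Trimmomatic 0.39, HISAT2 2.2.1 on GRCm38 and featureCounts of Subread 2.0.3. Of 52550 features, 147 without a symbol were not named, and 0 columns were left unused. Totals ran from 30357454 to 38812917 counts over the 8 developmental libraries, so low genes are limited by counting error.

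Groups came from the labels. P21 was compared with P14 in 1 edgeR 4.0.16 quasi-likelihood fit (R 4.3.3) of the P1, P14 and P21 libraries, with TMM scaling, filterByExpr and Benjamini-Hochberg adjustment over 20890 genes, of which 696 lie on X or Y. DEGs had an adjusted p under 0.05 and an absolute log2 fold change above 1, and list members were called with no fold limit. The scripts were tested on simulated data. Genes named were the 15 DEGs of largest change per direction whose mean level reached 3 on the log2 CPM scale without overlap between groups, the 5 members of each list with the smallest p, the 3 highest members of each cell type list, and Fos, Thy1, Rbpms and Pou4f1, and some genes that the rule names are not reported here. Other names were chosen after their values were seen. The comparison and its 54 gene lists were chosen with earlier results of these data known. Promoters are from RefSeq. Alternatives were DESeq2 1.42.0, limma 3.58.1 (voom), other scaling, filters, fold limits and libraries, and a replicate block.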

Additional observations from a re-analysis of the deposited data

How the results depend on the processing

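Against 544 DEGs higher and 1865 lower at P21, a fit of all 13 libraries gave 212 higher, and a filter of 10 counts in every library gave 1215 lower. Without the fold limit, 2976 were higher and 3868 lower, and with the limit tested in the model (glmTreat) 78 were higher and 695 lower, so the higher share of all calls went from 22.6% to 43.5% and 10.1%. Leaving out 1 of the 8 libraries in turn gave 371 to 607 higher DEGs and 1481 to 2094 lower. In the 5 P14 and P21 libraries alone, in fits chosen after seeing the data, leaving out P21 replicate 1 gave 732 higher and 2340 lower and leaving out P21 replicate 2 gave 572 and 1744. Where 1 P21 library remained, it was assumed to vary like the other groups. The replicate numbers did not pair the libraries: deviations of same-numbered libraries correlated from −0.216 to 0.128 over 11356 genes. With the replicate block, 304 were higher and 1559 lower. DESeq2 (508 and 1944), limma-voom (656 and 1882) and the 5 libraries (589 and 1841) stayed within 1.5 times. Of the 397 genes followed, 335 were called, and none of these reversed its direction in any of the 19 alternatives. Of the 335, however, 67 lost their call in the fit of all 13 libraries and 21 with the replicate block. Without P14 replicate 1, 2 or 3, 18, 23 and 21 lost it. Of 1024 list medians recomputed under these alternatives, 188 moved by 1 SD or more and 54 changed sign.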

Other observations

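Synaptic genes moved in both directions. Of 43 presynaptic release genes, 12 were higher and 16 lower at P21 (median log2 −0.0208), with as few as 1 higher in an alternative fit. Cplx2, a complexin that clamps vesicle fusion, fell from 242, 244 and 239 CPM to 81.9 and 57.3 CPM (3.47-fold; edgeR adjusted p = 1.98e-05). Of 43 glutamate receptor and postsynaptic genes, 9 were higher and 16 lower (median log2 −0.0762), with 5 higher without P21 replicate 2. Camk2a, the kinase of synaptic plasticity, fell from 29.4, 34.0 and 30.9 CPM to 8.01 and 8.23 CPM (adjusted p = 3.37e-06), while Grin3a, an NMDA receptor subunit of low calcium permeability, rose from 28.0 ± 0.228 to 42.7 ± 3.16 CPM (adjusted p = 9.28e-05). Of 15 clustered protocadherins, cell surface labels of single neurons, 4 were higher and 2 lower (median log2 0.143), with 1 lower without P21 replicate 2. Of 41 cilium and outer segment transport genes, 9 were higher and 13 lower (median log2 −0.0232). The higher count was 5 without P14 replicate 2 or P14 replicate 3, and as low as 0 in an alternative fit. Of 21 retinoid cycle genes, 2 were higher and 5 lower (median log2 −0.12), with 5 higher without P1 replicate 3, 0 or 1 higher without any 1 of the P14 or P21 libraries, and 3 lower without any 1 of the P14 libraries or P21 replicate 2.

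Signaling and metabolic lists gave further values. Of 26 Notch pathway genes, 5 were higher and 9 lower (median log2 −0.0167), with 9 higher without P1 replicate 3 and 3 without P14 replicate 1, P21 replicate 1 or P21 replicate 2. Notch3, the mural cell receptor, fell from 357, 348 and 311 CPM to 80.3 and 51.0 CPM (adjusted p = 0.000196), and its ligand Jag1 fell from 45.2 ± 1.91 to 12.6 ± 2.25 CPM (adjusted p = 0.000165). Of 39 Wnt pathway genes, 4 were higher and 14 lower (median log2 −0.123), with 7 higher without P1 replicate 3 and 9 lower without P21 replicate 2. Fzd4, the Norrin receptor of retinal vessels, fell from 19.9 ± 1.31 to 11.7 ± 0.0554 CPM (adjusted p = 0.000541), and Nkd1, a feedback inhibitor of the pathway, rose from 143 ± 3.69 to 235 ± 2.22 CPM (adjusted p = 0.000333). Of 19 retinal progenitor markers, 11 were lower and 2 higher (median log2 −0.681), with 5 higher without P1 replicate 3 and 1 without P21 replicate 1. Of 25 glycolysis genes, 10 were higher and 2 lower (median log2 0.197), with 6 higher without any 1 of the P14 libraries and 5 without P21 replicate 2, and Pfkp, a phosphofructokinase, rose from 906, 942 and 901 CPM to 1337 and 1396 CPM (adjusted p = 2.11e-05). Of 14 thyroid hormone pathway genes, 4 were higher and 2 lower (median log2 0.305, and 0.194 without P21 replicate 2), with 9 higher without P1 replicate 3 and 1 without any 1 of the P14 libraries or P21 replicate 2. Dio2, the enzyme that activates thyroid hormone, lay at 243, 223 and 222 CPM and at 520.5 and 517 CPM (adjusted p = 0.059, and 3.91e-08 with the 5 libraries).

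Of 20 integrated stress response genes, 7 were higher and 5 lower, with 3 higher without P21 replicate 2, and Psat1, of serine synthesis, rose from 99.7 ± 4.58 to 166 ± 0.175 CPM (adjusted p = 0.000701). Of 24 cholesterol synthesis genes, 6 were higher and 5 lower, with 9 lower without P21 replicate 1, 1 without P21 replicate 2, and 3 without P1 replicate 1, P1 replicate 2 or any 1 of the P14 libraries. Of 37 interferon-stimulated genes, 9 were higher and 4 lower, with 5 and 1 without P21 replicate 2, and Ifit2 rose from 11.8 ± 0.667 to 26.0 ± 0.919 CPM (adjusted p = 3.07e-05). Of 27 MHC class I and complement genes, 6 were higher and 5 lower, with 3 higher without P14 replicate 1, P14 replicate 3 or P21 replicate 1. Of 20 long noncoding RNAs, 4 were higher and 7 lower, with 2 higher without P14 replicate 1 or P21 replicate 2, and Kcnq1ot1, an imprinted antisense RNA, rose from 20.1, 20.3 and 19.6 CPM to 37.5 and 39.9 CPM (adjusted p = 5.89e-05), where the unstranded kit cannot tell it from its host gene. Among other cell types, 1 of 12 T and NK cell, 3 of 6 B cell and 2 of 7 oligodendrocyte and Schwann cell markers were lower, and 2 of 9 pigment epithelium and 2 of 7 oligodendrocyte markers higher. Leaving out 1 library changed those counts: the T and NK cell count was 0 without any 1 of the P14 libraries or P21 replicate 1, the B cell count 1 without P14 replicate 2, P14 replicate 3 or P21 replicate 1 and 0 without P21 replicate 2, the lower oligodendrocyte count 1 without P14 replicate 3, 4 without P21 replicate 1 and 0 without P21 replicate 2, and the pigment epithelium count 1 without any 1 of the P14 or P21 libraries. None of the 2 erythrocyte markers and none of the 4 lens crystallins tested was called.

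A cluster of zinc finger genes on chromosome 2 was detected in every P14 library and was lower at P21. Of its 12 members tested, 11 were called lower and 9 lay at 0 in both P21 libraries. Gm14322 lay at 0.840, 0.504 and 0.932 CPM and at 0.244 and 0 CPM (adjusted p = 0.0666, and 0.0424, lower, with the 5 libraries). The span was set by genes at 0 at P21, so these counts are a description. Zfp971 (chr2:178023284-178034022, GRCm38) lay at 0.918, 1.67 and 1.62 CPM at P14 and at 0 in both P21 libraries, at least 16.3-fold lower against a floor of 3 counts per library, and Gm14326 lay at 1.44, 2.30 and 1.18 CPM and at 0, at least 19.1-fold lower. At P1, Zfp971 lay at 0.786, 0.708 and 1.21 CPM and Gm14326 at 0.466, 0.400 and 0.677 CPM, while Gm14412 lay at 0, 0 and 0.141 CPM. Whether the zeros at P21 follow age or another difference between the animals was not tested. The members of the cluster are nearly identical copies, so the split of reads among them is uncertain. Away from the cluster, Cpa1, a pancreatic carboxypeptidase, lay at 3.10, 2.49 and 2.82 CPM at P14 and at 0 in both P21 libraries (at least 32.6-fold lower), and Rspo4, a Wnt agonist, at 2.05, 2.90 and 2.99 CPM and at 0 (at least 30.7-fold lower). Rpl29, a ribosomal protein gene with near-identical copies, lay at 27.1 ± 0.789 CPM at P14 and 1.81 ± 0.546 CPM at P21, and is uncertain for that reason. None of the 11 mitochondrially encoded genes was called, with 1 lower without P21 replicate 1 and 1 higher without P21 replicate 2.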
